A study of Mus musculus with 26 samples.

Results

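The loci described here are those whose imprint is set in the male germline: H19 and Igf2 on chromosome 7, Dlk1 and Meg3 on chromosome 12, and Rasgrf1 on chromosome 9. A cytosine position belonged to them when it lay in the GRCm38 RefSeq span of 1 of the 5 genes, within 5000 bp of it, or in 1 of 3 control regions, and had at least 10 reads in at least 1 library. The control regions were the H19 upstream region (chr7:142575000-142582500), the Dlk1-Meg3 intergenic region (chr12:109526000-109529500) and the Rasgrf1 upstream region (chr9:89868000-89880000). This gave 813 positions of the 2626422 with 10 reads anywhere in the genome, 2566861 of which were autosomal. The rule uses no methylation value, although the loci were proposed with earlier results of these data known. Each position is a cytosine on 1 strand, so both strands of a CpG count separately.

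DNA methylation was measured by reduced-representation bisulfite sequencing (RRBS) in 26 libraries of cauda epididymal sperm, to ask what spermatogonial stem cell transplantation (SSCT) leaves in the sperm of the transplanted males and of their descendants. SSCT F0 (n = 3) were sterile W/W-v males of WBB6F1/J background, aged 16 to 18 months, that carried cultured stem cells of neonatal DBA/2J donors, so donor germ cells matured beside host somatic cells. Control F0 (n = 3) were DBA/2J males of the same age. SSCT F1 were offspring of the transplanted males, SSCT F2/M came from SSCT F1 mothers and SSCT F2/P from SSCT F1 fathers, each mated with a DBA/2J control, and Control F1 were untreated offspring (n = 5 each, all aged 3 months). All offspring, Control F1 included, were DBA/2J mice, and the transplanted as well as the control fathers were paired with DBA/2J females. There was only 1 control offspring generation, so Control F1 served all 4 offspring comparisons, which therefore share control samples. Littermates were avoided within a group.

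The names of the 4 offspring sets are in conflict. The sample titles, used here, and the names in the clustering plot of the study give the same 4 sets of 5 libraries different group names: the libraries titled SSCT F1 and Control F1 carry the F2/P and F2/M names in that plot, and those titled SSCT F2/M and SSCT F2/P carry the Control F1 and SSCT F1 names. One label of the libraries titled SSCT F2/M also gives their treatment as WT. Results that do not depend on the naming, namely the range over all 20 offspring libraries, the test over the 4 unnamed sets and the F0 comparison, are therefore given first, and the named offspring comparisons at which a locus passed a test are given with the value under the clustering-plot names beside them.

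At these loci the control regions are methylated on the paternal chromosome only, a mark laid down in the male germline and kept through fertilisation. At the H19-Igf2 domain the unmethylated maternal control region binds the insulator protein CTCF, so that H19, a non-coding RNA, is expressed from the maternal and Igf2, a fetal growth factor, from the paternal chromosome. At the Dlk1-Meg3 domain the intergenic region is the control region of Dlk1, a membrane protein of the Notch ligand type, and Meg3, a non-coding RNA. At Rasgrf1, a Ras guanine nucleotide exchange factor, methylation upstream of the gene goes with paternal expression. The H19 and Meg3 promoters gain their own paternal methylation only after fertilisation. Sperm holds the paternal mark alone, so a control region in sperm is read against complete methylation.

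The gene start windows below show which CpGs of these promoters RRBS reached, since the method reads only the ends of fragments cut at CCGG. RefSeq (GRCm38.p6) lists promoter windows for 4 of the 5 genes, each of 300 bases from 250 before to 50 after a start, and 4 of their 8 windows held measured cytosines. Capitals mark the CpGs with at least 10 reads in at least 1 library. All 26 measured cytosines in these windows fell on a CG of the RefSeq sequence.

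Meg3 start 1, chr12:109540746-109541045, plus strand: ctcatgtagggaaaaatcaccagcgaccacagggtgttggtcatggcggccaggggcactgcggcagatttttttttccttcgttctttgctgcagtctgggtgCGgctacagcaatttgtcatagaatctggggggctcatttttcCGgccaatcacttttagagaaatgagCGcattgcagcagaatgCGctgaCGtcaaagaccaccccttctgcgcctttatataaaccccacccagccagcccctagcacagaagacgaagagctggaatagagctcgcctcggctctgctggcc
Igf2 start 3, chr7:142658755-142659054, minus strand: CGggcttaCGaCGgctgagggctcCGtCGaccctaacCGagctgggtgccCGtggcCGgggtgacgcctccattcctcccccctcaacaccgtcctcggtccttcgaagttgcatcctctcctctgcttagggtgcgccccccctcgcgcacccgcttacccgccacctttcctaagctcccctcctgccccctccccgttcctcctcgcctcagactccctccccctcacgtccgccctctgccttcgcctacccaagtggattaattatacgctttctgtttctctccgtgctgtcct
Igf2 start 4, chr7:142657447-142657746, minus strand: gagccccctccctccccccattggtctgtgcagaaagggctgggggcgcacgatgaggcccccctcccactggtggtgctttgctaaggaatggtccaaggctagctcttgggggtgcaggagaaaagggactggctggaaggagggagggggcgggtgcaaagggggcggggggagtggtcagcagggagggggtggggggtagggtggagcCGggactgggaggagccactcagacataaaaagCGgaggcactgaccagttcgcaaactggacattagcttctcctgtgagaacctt
Rasgrf1 start, chr9:89909525-89909824, plus strand: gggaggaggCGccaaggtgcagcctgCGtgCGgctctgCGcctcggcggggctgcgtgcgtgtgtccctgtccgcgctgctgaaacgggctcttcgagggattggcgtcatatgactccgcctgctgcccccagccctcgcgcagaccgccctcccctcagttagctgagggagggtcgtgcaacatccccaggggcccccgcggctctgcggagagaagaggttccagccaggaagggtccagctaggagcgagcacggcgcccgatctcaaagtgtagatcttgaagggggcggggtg

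The Meg3 window held 13 CpGs, of which 5 were measured. Igf2 start 3 held 24 with 8 measured, Igf2 start 4 held 7 with 2 measured, and the Rasgrf1 start 26 with 4 measured. CCGG, which reads the same on both strands, occurred once in each of the Meg3 and Igf2 windows and not in the Rasgrf1 window. Of all 32851 RefSeq promoter windows of this length, 52.8% held CCGG, and their median CpG count was 7. No cytosine with 10 reads fell in the windows of the other Igf2 starts, of Dlk1 or of Meg3 start 2.

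Coverage set what could be compared. Libraries held 45609751 to 87705464 cytosine reads, and the 813 positions divided into 43 at H19, 33 in the H19 upstream region (which overlaps the H19 gene and its flank), 315 at Igf2, 148 at Dlk1, 21 in the intergenic region, 96 at Meg3, 182 at Rasgrf1 and 8 in the Rasgrf1 upstream region. When each library of a group had to reach 10 reads, 387 of them remained for Control F0, 290 for Control F1, 250 for SSCT F1, 333 for SSCT F2/P and 344 for SSCT F2/M, but only 62 for SSCT F0. SSCT F0 stood apart across the genome as well: replicates 2 and 3 listed 1123552 and 305946 positions against 1995475 to 2232455 in the offspring, and their unweighted methylation over positions was 17.7% and 6.36% against 34.0% to 37.6%. Per the labels the SSCT F0 libraries were made from less DNA than the others. Levels are methylated reads as a percentage of all reads over the positions with 10 reads, and intervals are 95% Wilson intervals, which cover counting error only because reads without molecular identifiers are not independent molecules.

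In the offspring and in Control F0 the intergenic and Rasgrf1 upstream regions were close to fully methylated, as was the part of the H19 upstream region beyond the H19 start window. The Dlk1-Meg3 intergenic region ranged from 93.3% to 100% over the 20 offspring libraries, with a median of 98.1%, and was at 100% in all 3 Control F0 libraries. Each of its 20 positions measured in the offspring was above 90% on average, and 188 of 213 single values were exactly 100%. The Rasgrf1 upstream region ranged from 87.0% to 100% in the offspring, with a median of 96.2%, and from 97.7% to 100% in Control F0. The intergenic levels rested on 6 to 16 positions per offspring library and the Rasgrf1 levels on 4 to 8.

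H19 divided sharply at its start. The region upstream of the H19 start window, which lies towards Igf2, was methylated at 88.8% to 100% in the offspring (median 97.9%) and at 97.0% to 100% in Control F0. The H19 gene body was methylated at 92.4% to 100% (median 97.0%) in the offspring and at 98.3% to 99.7% in Control F0, with 11 of its 12 positions above 90% and 1 below 10%. The H19 upstream region as a whole, which spans the unmethylated start window, was at 59.6% to 87.8% in the offspring (median 73.5%). Between gene body and upstream part, the H19 start window (chr7:142578097-142578396) was at 0% to 8.80% in the offspring, with a median of 1.47%, and at 0% to 5.57% in Control F0. All 13 positions measured in the offspring in this window averaged below 10%.

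The start of Meg3 was unmethylated like that of H19. Over the CpGs in capitals in the Meg3 sequence above, 103 of 113 single offspring values were 0%, and the level ranged from 0% to 14.9% with a median of 0%. Control F0 ranged from 0% to 2.18%. Igf2 start 3 was at 0% to 6.92% in the offspring and 0% to 2.70% in Control F0, and the Rasgrf1 start, measured in only 4 offspring libraries, was at 0% in each. Igf2 start 4 was at 0% to 47.8% (median 21.7%) over its 2 positions in the 13 offspring libraries that measured them, at 0% to 22.2% in Control F0, and at 52.3% of 65 reads, 0% of 28 and 50.1% of 1146 in SSCT F0.

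**Figure D1:**
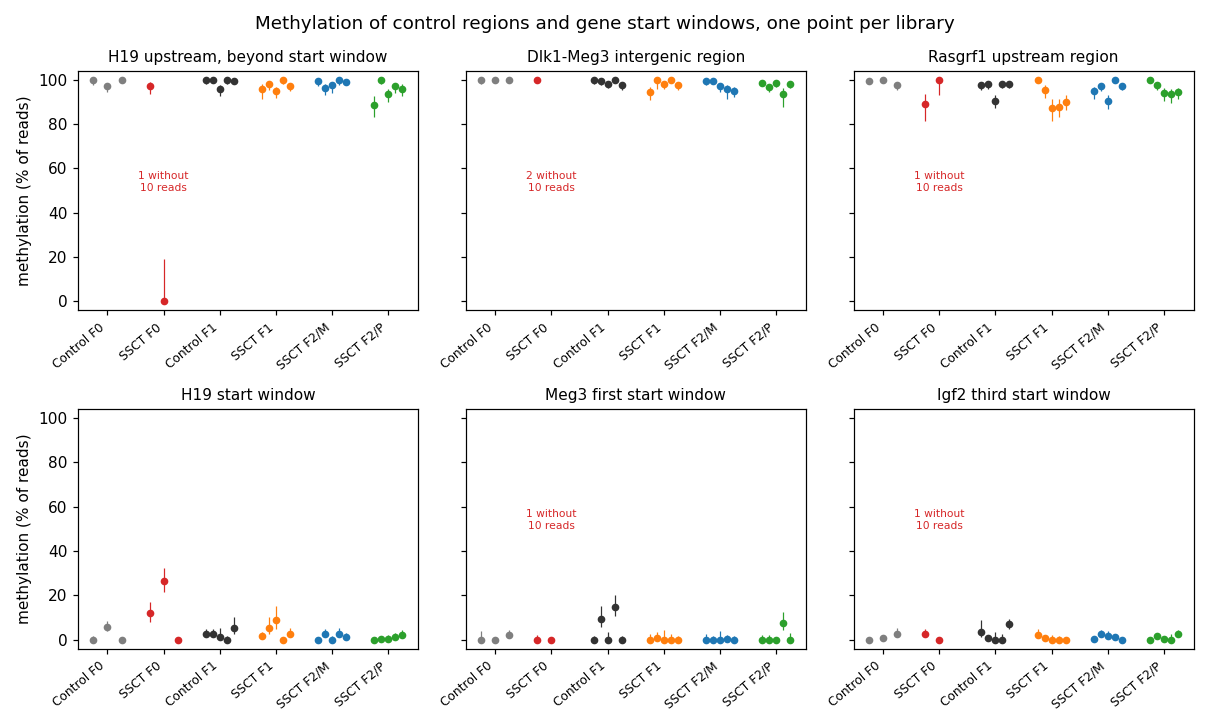
Methylation in percent of reads (y axis) of 2 control regions, the part of the H19 upstream region beyond the H19 start window, and 3 gene start windows by group (x axis), 1 point per library, with 95% Wilson intervals from reads. The first 3 sit between 87.0% and 100% and the start windows between 0% and 14.9% in all 20 offspring libraries, and the number of SSCT F0 libraries without 10 reads at any position is written in the panels.

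Along the loci, 1000 bp windows measured in at least 5 offspring libraries were mostly at 1 of the 2 extremes. Of 69 such windows, 40 had an offspring median above 90%, 18 below 10%, and 11 lay between. Rasgrf1 held none of the 11: 18 of its 23 windows were above 90% and 5 below 10%, the latter at the start of the gene (chr9:89908001-89911000) and at chr9:89953001-89955000 inside it. Igf2 held 4 of the 11, Dlk1 3, Meg3 3 and H19 1, the last around its start.

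At Igf2, the partly methylated window at chr7:142665001-142666000, inside the 5′ end of the gene, had an offspring median of 61.8% (47.8% to 82.2%), and that at chr7:142657001-142658000, around start 4, 37.4% (20.2% to 58.5%). Upstream of Igf2, the windows at chr7:142669001-142670000 and chr7:142670001-142671000, had 83.1% (75.0% to 87.7%) and 43.1% (0% to 68.8%). At Dlk1, a window about 4 kb upstream of the gene (chr12:109448001-109449000) had 49.1% (26.2% to 61.2%). At Meg3, 3 neighbouring windows 3 to 6 kb inside the gene had medians of 74.9%, 72.2% and 66.7%. The Control F0 median was 68.8%, 23.3%, 83.3% and 40.4% in these Igf2 windows in the order given and 45.5% in the Dlk1 window, inside the offspring range in each.

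**Figure D2:**
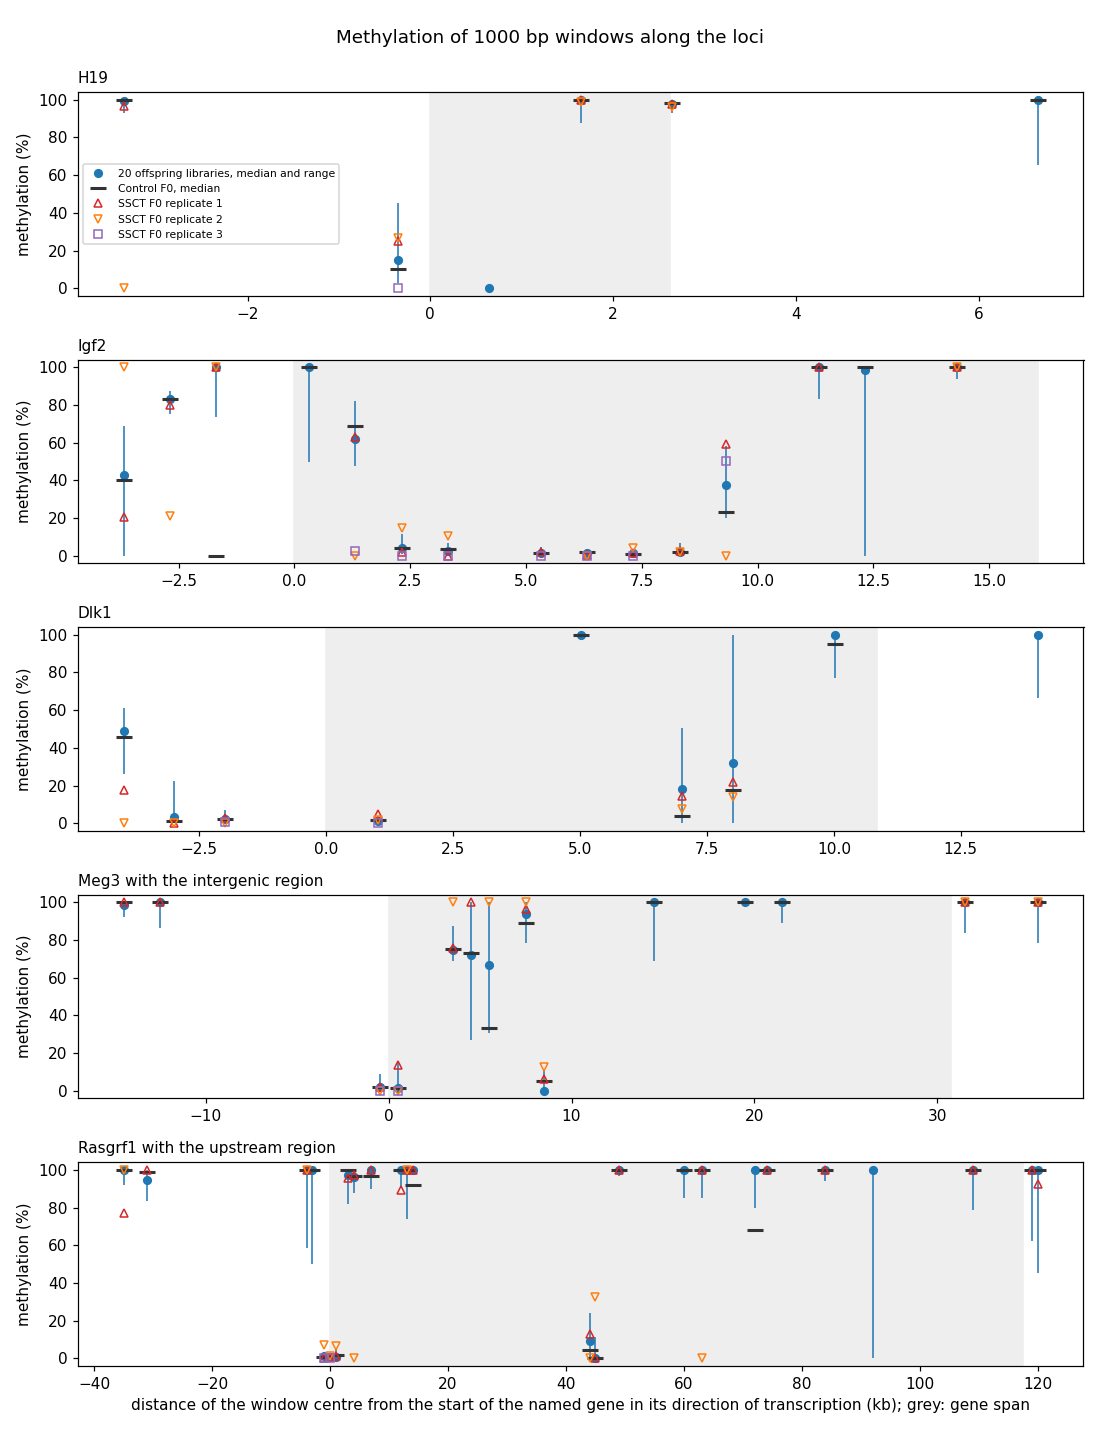
Methylation in percent (y axis) of 1000 bp windows against the distance in kb from the gene start (x axis), for 5 loci with the gene span in grey. Blue points and lines give the median and range of the 20 offspring libraries, black dashes the Control F0 median and open symbols each SSCT F0 library. Most windows sit near 0% or 100%, and 11 of 69 have an offspring median between 10% and 90%.

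Single partly methylated cytosines varied widely between offspring of the same group. The most variable position of all, in Igf2 at chr7:142657342, ranged from 11.8% to 100% over the 20 offspring libraries (SD 28.5 points). Its values were 51.5%, 11.8%, 54.1%, 100% and 80.0% in Control F1, 28.1%, 100%, 100%, 34.6% and 25.8% in SSCT F1, 53.1%, 56.8%, 100%, 55.6% and 45.5% in SSCT F2/P, and 52.9%, 100%, 76.7%, 46.7% and 28.9% in SSCT F2/M, so every pair of groups overlapped. In Dlk1, the position at chr12:109448517 ranged from 22.5% to 100% (SD 18.9 points), again with overlap of all 4 sets.

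The most variable positions at the other loci were mostly constant apart from a few libraries. In the H19 gene body, chr7:142575968 was between 90.8% and 100% in 16 libraries, at 81.2%, 82.8% and 84.2% in 3 more and at 45.5% in SSCT F1 replicate 2. In the intergenic region, chr12:109526694 was at 100% in 19 libraries and at 69.2% in SSCT F2/M replicate 4. In Meg3, chr12:109548287 ranged from 65.5% to 100%. Near the Rasgrf1 start, chr9:89909092 was at 0% in 16 libraries and reached 59.4% in Control F1 replicate 1. In the Rasgrf1 upstream region, chr9:89878315 ranged from 69.0% to 100%.

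As a set, the positions of these loci varied about as much as the genome. Over the 139 positions with 10 reads in all 20 offspring libraries, the median SD was 4.93 points and 3.60% had an SD above 20 points, against 4.71 points and 3.23% over 460453 positions genome-wide. Their means lay above 90% at 24 positions, below 10% at 99, and between at 16. In the genome, 27.4% lay above 90% and 60.3% below 10%.

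Across the 4 offspring sets, whatever their names, only Rasgrf1 had a permutation p under 0.05. The level of a locus was computed per library over positions with 10 reads in all 20, and the spread between sets was compared with 100000 shuffles of the libraries. Rasgrf1 with its flanks gave a permutation p of 0.0240, with 43.4% of the variance between sets, and the other genes and regions gave permutation p-values between 0.384 and 0.747. The value of Rasgrf1 did not pass correction over all gene spans (Benjamini-Hochberg adjusted permutation p = 1), and 4.69% of all gene spans had a permutation p under 0.05 in the same test. H19 had the widest range over the 20 libraries, 36.6% to 86.2% with a median of 50.0%, over 6 positions. The 3 of these positions above 50% were at 88.6% to 100% in the 20 libraries. The share of H19 reads that fell on them was 37.4% to 86.5% in Control F1 and 39.7% to 66.7% in pooled SSCT F2. The other H19 positions were at 0% to 7.14% and 0% to 3.63% in these groups. The part of the share in the range was not tested.

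The Rasgrf1 level averaged lower in each of the 3 SSCT-titled sets than in Control F1. Over 32 positions, Control F1 libraries were at 20.9%, 17.6%, 20.8%, 16.3% and 23.3%, SSCT F1 at 12.7% to 17.6%, SSCT F2/M at 18.9%, 10.7%, 12.4%, 14.5% and 14.1%, and SSCT F2/P at 19.3%, 14.3%, 14.4%, 15.5% and 8.81%. Control F1 was highest on average, at 19.8% ± 2.85 (SD, n = 5) against 14.7% ± 1.88, 14.1% ± 3.08 and 14.4% ± 3.76, and its range overlapped that of each other set. The permutation p rose above 0.05 without Control F1 replicate 1, 3 or 5, SSCT F2/P replicate 1 or SSCT F2/M replicate 3 (0.0622 to 0.0984), and to 0.147 and 0.294 with at least 5 and 20 reads per position.

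The share of the reads that fell on methylated positions moved with these levels, and its part in them was not tested. The 6 of 32 positions that were above 50% took 15.7% to 22.3% of the reads in Control F1, with a mean of 18.6%, and the means of the other sets were 14.5% in SSCT F1, 13.96% in SSCT F2/P and 13.1% in SSCT F2/M. Their own level was 97.6% ± 2.56 (SD, n = 5) in Control F1, 95.1% ± 1.65 in SSCT F1, 94.7% ± 1.51 in SSCT F2/P and 97.5% ± 1.66 in SSCT F2/M. The other positions were at 0.162% to 4.30% in all 20 libraries.

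**Figure D3:**
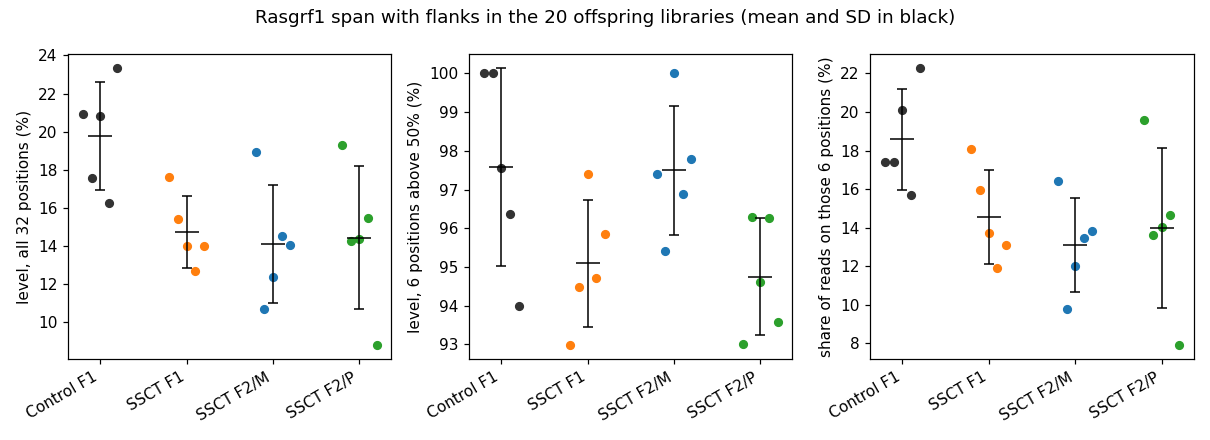
Rasgrf1 span with 5000 bp flanks in the 20 offspring libraries by titled group (x axis), as the level in percent over 32 positions, the level in percent over the 6 positions above 50%, and the percentage of reads on those 6 positions. Black bars give mean and SD of 5 libraries, the y axes do not start at 0, and the level over all positions and the share of reads are highest on average in Control F1.

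In SSCT F0, the control regions could be read in replicate 1 and hardly in the others. Replicate 1 had 100% methylation in the intergenic region (11 positions, 328 reads, interval 98.8% to 100%), 89.0% in the Rasgrf1 upstream region (4 positions, 100 reads, 81.4% to 93.7%), 97.3% upstream of the H19 start window (7 positions, 149 reads, 93.3% to 99.0%) and 98.2% in the H19 gene body. Replicate 2 had no position with 10 reads in the intergenic region, 100% in the Rasgrf1 upstream region (2 positions, 51 reads) and 96.6% in the H19 gene body (3 positions, 773 reads). Upstream of the H19 start window it had 1 position, at 0 of 16 reads (interval 0% to 19.4%), where replicate 1 and Control F0 were at 87.1% to 100%. Replicate 3 had no position with 10 reads in any of these regions.

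Fewer highly methylated than lowly methylated positions kept 10 reads in each SSCT F0 library. Of the 58 positions of these loci above 90% in every Control F0 library, 77.6%, 20.7% and 0% had 10 reads in SSCT F0 replicates 1, 2 and 3, and of the 231 below 10% in every Control F0 library, 92.2%, 71.9% and 27.3% did. The genome showed the same order, with 75.7%, 27.8% and 1.60% of 228274 highly methylated positions and 89.8%, 67.3% and 13.8% of 627232 lowly methylated positions. In Control F1, 84.5% to 100% of the 58 and 76.2% to 93.9% of the 231 had 10 reads. Where they did have 10 reads, the 45 and 12 highly methylated positions were at 96.0% and 95.8% in replicates 1 and 2. A comparison that asks for 10 reads in all 6 F0 libraries thus held no position of the intergenic or Rasgrf1 upstream region, and it held 2 positions in the H19 upstream region, both in the H19 start window. At Igf2, Dlk1, Meg3 and Rasgrf1 too, every position it held was at or below 50% in the pooled offspring reads.

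**Figure D4:**
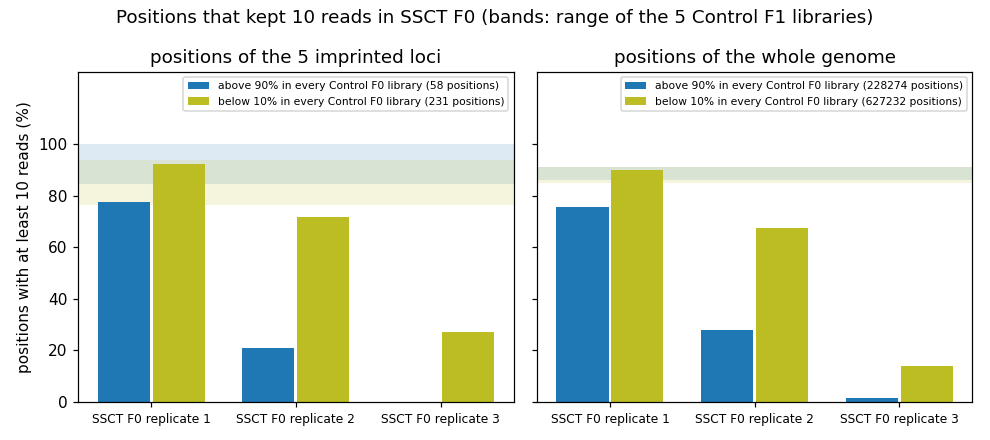
Percentage of positions with at least 10 reads (y axis) in each SSCT F0 library (x axis), for positions above 90% (blue) or below 10% (olive) in every Control F0 library, at the imprinted loci (left) and in the genome (right). Bands give the range of 5 Control F1 libraries, and the blue bars fall from 77.6% to 0% at the loci, faster than the olive bars (92.2% to 27.3%).

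Within those limits, 1 of 60 positions tested at the loci was called between SSCT F0 and Control F0 (logistic likelihood-ratio test on reads as in methylKit, Benjamini-Hochberg q below 0.01 and a difference over 25 points), against 5.8% of 82035 positions genome-wide. None of 11 windows of 1000 bp was called, against 9.95% of 19526. In 2 of the 11 the groups did not overlap, against 10.7% of windows genome-wide. These were the Igf2 windows at chr7:142660001-142661000 and chr7:142663001-142664000. Over the positions shared by the F0 libraries, all 3 SSCT F0 libraries were at 0%. Control F0 was at 5.71%, 15.8% and 1.90% in the first and at 2.65%, 1.83% and 4.86% in the second. Over each library's own positions, SSCT F0 was at 0.343%, 0% and 0.0514% in the first (Control F0 median 1.92%). In the second, SSCT F0 was at 0%, 10.7% of 319 reads and 0%, with a Control F0 median of 3.48%. The called position, chr7:142665183 inside Igf2, was at 28.2% of 78 reads, 0% of 36 and 0% of 20 in SSCT F0 and at 52.9%, 45.5% and 40.8% in Control F0, a read-weighted difference of -29.2 points (q = 5.35e-07). The groups did not overlap, which for 3 against 3 gives the smallest exact permutation p, 0.1. The same position ranged from 0% to 83.7% in the offspring, so the SSCT F0 values lay inside the range of untreated Control F1 mice. Its difference was -23.2 points, and no longer called, without SSCT F0 replicate 2 or with the strands of a CpG merged. An F test with an overdispersion term, which lets mice of a group differ, called 0 positions genome-wide, and its unadjusted p was below 0.05 at 9 of the 60 positions, against 11.5% of positions genome-wide, and at 3 of the 11 windows, against 20.9% of windows.

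Locus levels, which held only positions at or below 50% in the pooled offspring reads, did not separate the F0 groups. They cannot show whether the highly methylated positions of these loci differed. Igf2 was at 15.6%, 5.49% and 0.0196% in SSCT F0 and 12.3%, 7.39% and 15.2% in Control F0 over 13 shared positions (exact permutation p = 0.5). Meg3 was at 2.38%, 0% and 0.0239% against 0.920%, 3.51% and 4.55% (10 positions, exact permutation p = 0.2), and Dlk1 and Rasgrf1 differed by 0.0681 and -0.0929 points (exact permutation p = 0.9 and 1). H19 was at 50.0%, 26.5% and 0.113% against 0%, 18.9% and 0% over the 2 positions of its start window (exact permutation p = 0.2). No locus was free of overlap between the groups, against 11.7% of 15862 gene spans in the same comparison.

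The methylated reads of SSCT F0 replicates 1 and 2 at these H19 positions lay on 1 cytosine. At chr7:142578144 SSCT F0 replicate 1 had 100% of 19 reads methylated, replicate 2 had 53.2% of 124 and replicate 3 had 0 of 440, while all 3 Control F0 libraries were at 0% of 37 to 66 reads. In the offspring this position was at 0% in 17 of the 19 libraries with 10 reads and at 20.0% and 21.7% in the others. Over the whole H19 start window, SSCT F0 replicates 1 and 2 were at 11.9% (8 positions, 201 reads) and 26.5% (2 positions, 249 reads), above the 8.80% that was highest in the offspring, and replicate 3 was at 0.0344% of 2906 reads. The offspring levels rest on 3 to 13 positions, so that of replicate 2 is over an unlike set. Over the 2 positions of replicate 2, a Control F0 library was at 18.9%. The largest F0 differences of group means at the other loci were 7.29 points at chr12:109453668 in Dlk1, -6.69 points at chr12:109540638 in Meg3 and 33.4 points at chr9:89908772 near the Rasgrf1 start, the last from replicate 2 alone (100% of 40 reads, with all other F0 libraries at or below 0.0803%).

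Without SSCT F0 replicate 3, 1 of the settings of the analysis, 230 positions could be tested and 22 were called, 10 lower and 12 higher than Control F0. These were 9.57% of those tested, against 5.83% of 598789 positions genome-wide. With SSCT F0 replicate 1 alone, a setting chosen after seeing the data, 15 of 344 were called, 7 lower and 8 higher (4.36%, against 5.49% of 1008125). The second setting has a single library in its arm, which the first setting also holds. Of the 22, 4 positions of Rasgrf1 were higher and 1 lower. At these, SSCT F0 replicate 1 lay inside the Control F0 range, at 0% or 100%, and replicate 2 was at the other extreme. In Igf2, chr7:142664986 was 26.7 points higher, with 0% of 33 reads in replicate 1 and 100% of 62 in replicate 2. With replicate 1 alone its difference was -38.6 points. Dlk1 had 4 lower and 3 higher positions among the 22. At chr12:109448517, among the lower ones, SSCT F0 replicates 1 and 2 had 19.7% of 66 and 0% of 64 reads, against 85.1%, 62.3% and 40.2% in Control F0. The offspring ranged from 22.5% to 100% there, above both SSCT F0 values.

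**Figure D5:**
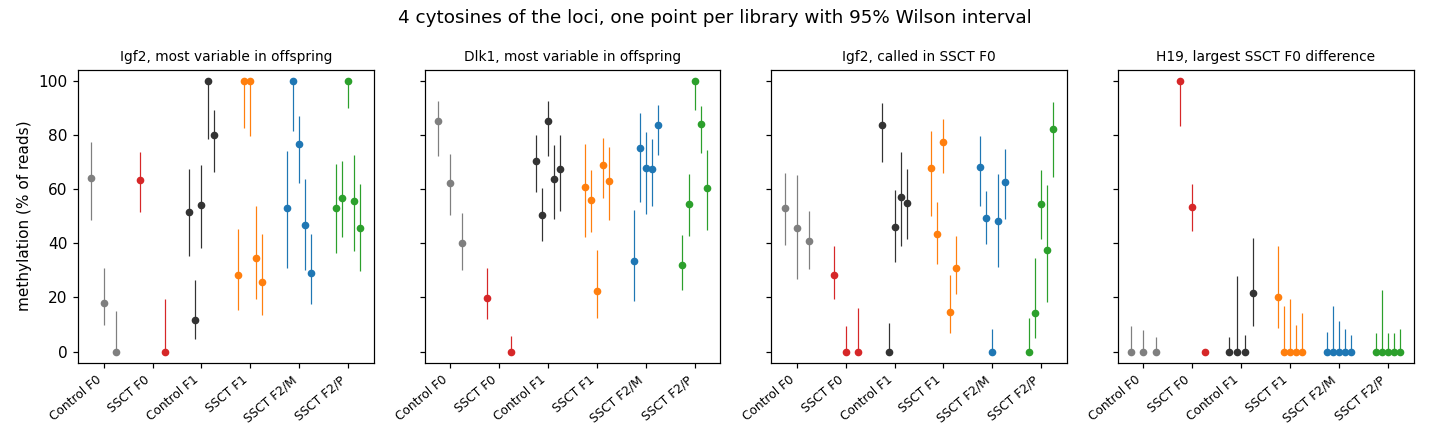
Methylation in percent of reads (y axis) at 4 cytosines of the loci by group (x axis), 1 point per library with at least 10 reads and its 95% Wilson interval. The 2 Igf2 positions reach from 0% or 11.8% to over 80% in offspring of the same group, the Dlk1 position is at 19.7% and 0% in SSCT F0, and the H19 position is at 100%, 53.2% and 0% in SSCT F0.

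Somatic DNA in the sperm was looked for at 16 maternally methylated imprinted genes, such as Peg3, Snrpn and Kcnq1ot1, whose control regions lack methylation in sperm and carry it on 1 chromosome in somatic cells. The windows used were the 74 of 1000 bp, in the spans of these genes with 5000 bp flanks, that were under 10% in the pooled offspring reads. This choice did not use the F0 libraries, but it keeps the offspring levels low in advance, so these cannot show whether offspring sperm held somatic DNA. The level summed over these windows was 1.66% to 2.37% in the offspring, 1.77% to 2.17% in Control F0 and 2.93% to 3.44% in SSCT F0. None of the 16 was above 10% in any Control F0 or offspring library or in SSCT F0 replicate 1, while 2 were in replicate 2 and 1 was in replicate 3. In SSCT F0, 0, 3 and 5 of the genes were at 0%, of 16, 16 and 13 measured. The part of these values in the F0 results was not tested.

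Between SSCT F1 and Control F1 as titled, no position and no window of the loci was called, of 195 and 39 tested. The background was 0.463% of 596343 positions and 0.415% of 127773 windows. The F test called 0 positions and 0 windows in the genome in every comparison, and its unadjusted p was below 0.05 at 16 of the 195 positions (8.21%, against 7.68% genome-wide) and at 6 of the 39 windows (15.4%, against 8.63%). At the level of loci, the groups were free of overlap in none, against 0.615% of 32376 gene spans.

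Of the windows, 1 of 39 was free of overlap, against 0.434% genome-wide. This window, chr9:89912001-89913000 inside Rasgrf1 near its start, is singled out after its values were seen. SSCT F1 was at 93.8%, 86.3%, 93.3%, 87.8% and 87.5% over its 2 positions and Control F1 at 100%, 100%, 100%, 100% and 93.9%, so that the highest SSCT F1 mouse lay just below the lowest Control F1 mouse. The means were 89.8% ± 3.53 and 98.8% ± 2.71 (SD, n = 5), and the read-weighted difference of -8.56 points, which is under the 25 points of a call, had the smallest exact permutation p, 0.00794. With the overdispersion term the adjusted value over all windows was q = 0.538. Over each library's own positions in this window, the titled SSCT F1 and Control F1 had medians of 87.8% and 100%. The sets with these names in the clustering plot, titled SSCT F2/P and SSCT F2/M, had 97.0% and 97.4%. No test of this window under the clustering-plot names is given.

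Only the Rasgrf1 upstream region passed an exact permutation p of 0.05 between these groups, 1 of 8 loci tested against 3.99% of gene spans. SSCT F1 was at 100%, 89.6%, 87.0%, 87.8% and 86.5% over 4 positions and Control F1 at 96.0%, 100%, 98.3%, 96.9% and 96.5%, so that 4 of 5 SSCT F1 mice lay below all Control F1 mice and the fifth lay at their top. The means were 90.2% ± 5.61 and 97.5% ± 1.63 (SD, n = 5), a difference of -7.33 points (exact permutation p = 0.0476). The p was between 0.0556 and 0.0794 on leaving out any 1 of 8 of the 10 libraries (SSCT F1 replicates 2 to 5 or Control F1 replicates 2 to 5), and the difference was -4.88 points without SSCT F1 replicate 3. It was -4.37 points over each library's own positions (exact permutation p = 0.119) and -6.38 points with at least 20 reads (exact permutation p = 0.175). Under the clustering-plot names the difference was 0.139 points (exact permutation p = 0.968).

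Over positions above 50% only, a restriction chosen after seeing the data, SSCT F1 was lower at 4 of 8 loci and higher at 1 (exact permutation p under 0.05), H19 and its upstream region counting as 2 on the same positions, against 3.38% of 25288 gene spans in either direction. The Rasgrf1 upstream region is among the lower loci and repeats the result above, since all its tested positions were above 50%. Rasgrf1 was at 94.5% ± 1.38 against 97.7% ± 1.04 (SD, n = 5) over 14 positions, without overlap, which gives the smallest exact permutation p of 0.00794 (adjusted over all gene spans, 1). H19 was at 95.5% ± 3.46 against 99.87% ± 0.299 over 4 positions that its upstream region shares (exact permutation p = 0.0476). Meg3 was higher in SSCT F1, at 99.7% ± 0.579 against 96.1% ± 2.91 (exact permutation p = 0.0476). Under the clustering-plot names Rasgrf1 was at 96.8% against 97.7% (exact permutation p = 0.206), and H19 and Meg3 differed by -0.878 and -1.44 points (exact permutation p = 0.556 and 0.310). The test over the 4 unnamed sets gave permutation p-values of 0.0521 for Rasgrf1, 0.0547 for H19 and 0.0331 for Meg3 over these positions.

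The remaining levels in SSCT F1 did not pass the test against Control F1. Rasgrf1 over all 45 positions was at 24.8% ± 2.83 against 29.5% ± 3.88 (SD, n = 5, exact permutation p = 0.0635). Igf2 was at 19.7% ± 4.90 against 21.1% ± 3.50 (88 positions, exact permutation p = 0.587), Dlk1 at 10.1% ± 3.79 against 8.55% ± 1.75 (33 positions, exact permutation p = 0.444) and Meg3 at 44.9% ± 9.32 against 43.8% ± 5.18 (14 positions, exact permutation p = 0.825). The intergenic region was at 97.9% ± 2.94 against 99.5% ± 1.02 (exact permutation p = 0.444), and H19 at 57.0% ± 17.01 against 61.2% ± 16.3 (exact permutation p = 0.722).

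In SSCT F2/M, 1 of 214 positions and 0 of 36 windows were called against Control F1, with a background of 0.421% of positions and 0.364% of windows. The called position, chr7:142664986 inside Igf2, was at 66.7%, 23.5%, 0%, 24.4% and 0% in SSCT F2/M and at 18.5%, 84.2%, 65.8%, 70.4% and 12% in Control F1. The groups overlapped over most of their range, and the read-weighted difference of -27.0 points (q = 2.14e-05) had an exact permutation p of 0.183 over mice. It fell to between -20.8 and -21.9 points, below the threshold, without SSCT F2/M replicate 5 or Control F1 replicate 2, 3 or 4, and it was 27.0 points in the other direction under the clustering-plot names.

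In SSCT F2/P, 0 of 242 positions and 0 of 40 windows were called, with a background of 0.431% and 0.392%. The F test had an unadjusted p under 0.05 at 21 of these 242 positions, against 7.81% of positions in the genome, and in SSCT F2/M at 19 of 214, against 7.70%. Among windows it did so at 6 of 40 in the paternal line, against 8.71%, and at 2 of 36 in the maternal line, against 8.64%. No window was free of overlap in either line, against 0.465% and 0.428% of windows. No locus passed an exact permutation p of 0.05 in either line, with 4.49% of gene spans passing in the paternal and 4.09% in the maternal line, and none was free of overlap, against 0.619% and 0.685%. Over positions above 50%, H19 in SSCT F2/P was at 95.7% ± 4.45 against 99.87% ± 0.289 (SD, n = 5, exact permutation p = 0.0476). Under the clustering-plot names this H19 difference was -3.09 points (exact permutation p = 0.167), and with the F2 lines exchanged -0.334 points (exact permutation p = 0.881). With its upstream region, on the same positions, this made 2 of 8 loci, against 3.57% of gene spans. In SSCT F2/M no locus passed, against 3.6%.

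The intergenic region was 2.58 points lower in SSCT F2/P than in Control F1 and 1.66 points lower in SSCT F2/M, with exact permutation p-values of 0.0635 and 0.143. SSCT F2/P libraries were at 98.7%, 96.4%, 98.0%, 92.2% and 97.7% and Control F1 libraries at 99.5%, 99.5%, 100%, 100% and 96.8% over 8 positions, so all but 1 Control F1 mouse lay above all SSCT F2/P mice. The Rasgrf1 upstream region was at 94.6% ± 3.67 in SSCT F2/P and 96.1% ± 3.99 in Control F1 (SD, n = 5, 6 positions, exact permutation p = 0.540), and at 96.1% ± 2.60 against 98.1% ± 1.17 in the maternal line (exact permutation p = 0.167).

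With both F2 lines pooled (n = 10), no position of 183 and no window of 34 was called, with a background of 0.188% and 0.143%. No window was free of overlap, against 0.0457%, and the F test had an unadjusted p under 0.05 at 3 of the 34, against 8.13%. Rasgrf1 was at 15.5% ± 2.55 against 19.9% ± 3.29 in Control F1 over 43 positions, a difference of -4.41 points (exact permutation p = 0.00966, adjusted over all gene spans 1). It was the only locus of 8 to pass, against 4.67% of gene spans, and no locus was free of overlap, against 0.0595%. Positions above 50% took 14.7% of the reads in SSCT F2 and 19.03% in Control F1 (exact permutation p = 0.00666), or 19.9% and 16.5% under the clustering-plot names (exact permutation p = 0.107), while the level of those positions was 96.8% against 97.4% (exact permutation p = 0.533) and that of the others 1.55% against 1.83% (exact permutation p = 0.622). The share of reads was lower in SSCT F2 at H19, Igf2, Dlk1 and Meg3 too. At Igf2 it was 20.7% against 25.1% (exact permutation p = 0.0296), and the exact permutation p was 0.312 to 0.379 at the others. The share was not set against all gene spans. In level, no locus passed over positions above 50%, against 4.2% of gene spans. The level difference of Rasgrf1 was -0.511 points as an unweighted mean of positions (exact permutation p = 0.289) and -0.742 points over each library's own positions (exact permutation p = 0.757). It was -4.17 points with at least 5 reads (exact permutation p = 0.109), -7.53 points with 20 (exact permutation p = 0.0942) and -5.43 points without flanks (exact permutation p = 0.195). It was -3.18 points (exact permutation p = 0.156) without SSCT F2/M replicate 3, and 2.90 points (exact permutation p = 0.188) under the clustering-plot names.

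Over all comparisons, 2 of 38 locus tests had an exact permutation p under 0.05, both lower in SSCT. The 6 tests of SSCT F0 among the 38 could not pass, since 3 against 3 gives no p below 0.1. The SSCT group was lower in 30 of the 38, but the comparisons in offspring share their controls, the H19 gene and upstream region share their positions, and the pooled F2 repeats the 2 lines.

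The neighbouring genes of the same domains ranged from full methylation to nearly none. In the chromosome 7 domain, Ins2, the second insulin gene, was at 100% in every library that measured it, Th, the tyrosine hydroxylase gene, had an offspring median of 70.6%, Mrpl23, a mitochondrial ribosomal protein gene, 16.5%, and Igf2os, the antisense transcript that overlaps Igf2, 16.4%. In the chromosome 12 domain, the methylated genes were Rtl1, derived from a retrotransposon, at 98.4%, and the non-coding RNAs Rian and Mirg at 97.9% and 97.7%, while Begain and Dio3, which lie at the edges, were at 21.2% and 9.18%. At Mirg, SSCT F0 replicates 1 and 2 were at 55.1% and 82.6% against 93.0% to 99.4% in Control F0, while replicate 3 had no position with 10 reads there, so that no test was run. Zdbf2 and Gpr1, a further paternally methylated domain on chromosome 1, were at 3.80% and 31.1%. No neighbour tested had an exact permutation p under 0.05 in an offspring comparison, the nearest being Zdbf2 in SSCT F2/P (0.842 points, exact permutation p = 0.0556). Ins2 could not be tested in any comparison. In F0, where no p below 0.1 is possible, only Igf2os, Begain, Dio3, Zdbf2 and Gpr1 could be tested. Igf2os gave the same difference as Igf2 in SSCT F0 and in pooled F2, so it is not a separate test there.

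Across the 23 libraries other than SSCT F0, the gene spans whose levels followed a control region most closely lay outside the 5 genes. For the H19 upstream region, which mixes methylated and unmethylated positions, these were 2010110K18Rik, Gm10044 and 1700122E12Rik (Pearson r = 0.751, 0.740 and 0.730 of 16264 genes). For the intergenic region they were Tmem167, Gm51667 and Zbtb3 (r = 0.643, 0.596 and 0.595 of 16263), and for the Rasgrf1 upstream region Gm40103, Gm31875 and Gm13916 (r = 0.607, 0.597 and 0.584). These are the highest of many values over the same libraries and are given as a description.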

How the data were processed

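RRBS libraries of purified cauda epididymal sperm were made with the Diagenode Premium RRBS kit and sequenced as single reads, with several libraries pooled per conversion. Which libraries shared a pool is not given in the sources used here. Per the labels, the authors' processing notes name FastQC, Trim Galore 0.4.1, Bismark 0.20.0, methylKit 1.7.0 and the builds GRCm38 and mm10. The deposited files list, for each cytosine on each strand, the methylated fraction and the read count (coverage), neither normalized. Each library held 45609751 to 87705464 such reads. Methylated reads were recovered as fraction times coverage.

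Groups follow the sample titles, and the names of the clustering plot were run as an alternative. A position was compared where no library of either group had fewer than 10 reads there, or more than an upper percentile of its own coverage. As in methylKit, group reads were compared by a logistic likelihood-ratio test with Benjamini-Hochberg adjustment over all positions or 1000 bp windows, and called at q below 0.01 with a difference over 25 points. The q-values of this read test do not include the spread between mice, and the permutation p-values over libraries measure only the spread between these samples. The level of a locus was compared over libraries by exact two-sided permutation (smallest p 0.1 for 3 against 3, 0.00794 for 5 against 5, 0.000333 for 10 against 5), with adjustment over all gene spans with 5000 bp flanks, and the 4 offspring sets by 100000 shuffles. Control regions have no adjusted p. Positions named are, per locus, those with the largest SD over the offspring, with the largest F0 difference of means, or called. The members and lists were chosen with earlier results of these data known. The tests were tried on simulated reads of the SSCT F1 and Control F1 libraries. Where the simulated level varied between mice, the F test recovered 13% of changes of 30 points and 35% of those of 60. The read test recovered 71% and 100%, and called 40 unchanged positions where the F test called 1. Python 3.11.15, numpy 2.4.6, scipy 1.17.1, pandas 2.3.3 and matplotlib 3.10.9 were used. Alternatives were other coverage minimums, no upper limit, an F test with overdispersion, a smaller difference, merged strands, shifted windows, unweighted levels, no flanks, a replicate block and leaving out each library.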

Additional observations from a re-analysis of the deposited data

Results flagged for a closer look

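In 4 of 32 groups of 5 libraries tested over the 8 loci, each locus level computed over all positions of the library with 10 reads, 1 library stood apart from the others by Dixon's criterion, which chance passes in about 5% of groups. H19 was at 59.6% in SSCT F2/P replicate 1, with the next library at 70.6%. Igf2 was at 21.6% in Control F1 replicate 5, with the next at 18.8%, and Dlk1 at 13.2% in Control F1 replicate 3, with the next at 9.45%. The Rasgrf1 upstream region was at 90.4% in Control F1 replicate 3 (8 positions, 429 reads), with the next at 97.6%. Of 24 differences between the effects in the F1 and in the maternal and paternal F2 lines, none had an exact permutation p under 0.05.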

How the results depend on the processing

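Of 144 recomputed counts that answer a comparison, leaving aside those without 1 library, 97 kept their size. The other 47 moved by over 1.5 times or changed to or from 0. Of 766 recomputed locus differences, 113 changed sign. Main counts of called positions were 1 for SSCT F0, 0 for SSCT F1, 1 for the maternal line (SSCT F2/M), 0 for the paternal line (SSCT F2/P) and 0 for pooled F2, of called windows 0 in each, and of loci with p under 0.05 0, 1, 0, 0 and 1. With a difference over 10 points, called positions were 6, 6, 12, 8 and 4 and called windows 1, 2 and 1 in the first 3 of these. With at least 5 reads, called positions were 2, 4 and 1 and windows 1, 2 and 1 in SSCT F2/M, SSCT F2/P and pooled F2, and with 20 reads SSCT F2/M had 0 called positions and each line 1 locus. The F test called 0 positions and merged strands 0 in SSCT F0, while SSCT F0 replicate 1 alone gave 15 positions and 2 windows. Loci with p under 0.05 in SSCT F1 were 4 with unweighted positions, 5 over positions above 50%, 0 over the others and 0 with each library's own positions. Without flanks the count was 0 as well, but that setting covers only the 5 genes and not the control regions. In SSCT F2/P they were 2, 2 and 1 with unweighted positions, above 50% and without flanks (Meg3 in the last), and in pooled F2 2 with own positions (the H19 upstream region and Meg3), 1 without flanks (Meg3, not Rasgrf1) and 0 with 5 reads, unweighted, above 50% or at or below it. In the 4 sets 1 locus became 0 with 5 reads and 2 with 20. Under the clustering-plot names, with or without exchange of the F2 lines, SSCT F1 had 1 called position and 0 loci and pooled F2 0 loci, the Rasgrf1 upstream difference in SSCT F1 became 0.139 points and the Rasgrf1 difference in pooled F2 2.90 points. The position in SSCT F2/M became 27.0 points, and with the exchange SSCT F2/M had 0 called positions and SSCT F2/P 1. The counts of called positions and windows in this section describe the dependence on the settings only. The number tested or the share called genome-wide can change with the setting and is not given beside them, so they are no result about these loci. The cause of these changes was not tested.

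Leaving out 1 library gave 0 to 22 called positions in SSCT F0 and 0 to 1 in each offspring comparison, 0 to 5 windows in SSCT F0 and 0 to 1 in SSCT F2/P, and 0 to 2 loci in SSCT F1, 0 to 3 in pooled F2, 0 to 1 in each F2 line and 0 to 2 over the 4 sets. Correlations of the deviations of same-numbered libraries, not of their methylation itself, lay between -0.0105 and 0.0109, so the numbers were not taken to pair mice. With the replicate block, 0 loci passed in SSCT F1 and 0 in pooled F2, where 5 pairs cannot give a p below 0.0625. Read coverage limits what could be compared: in SSCT F0 against Control F0, 2 control regions had no position with 10 reads in all 6 libraries.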
